A study of Mus musculus with 6 samples.

Results

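The genes described here are 44 genes of the cell cycle and proliferation, taken by name from the annotation of the arrays, out of 24787 genes that have a probe. All 44 have at least 1 probe, 79 in all, and the single probe of Ccne2 was left out because a spot carried an outlier flag. The choice was made by name and used no measured value, although earlier results of these data were known when it was made. By role, 16 act in DNA replication and S phase, 21 in mitosis, 5 are cyclins and kinases of G1 and 2 are inhibitors.

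RNA of the renal cortex of male mice aged 16 weeks was measured on Agilent arrays with a single colour, in 3 mice per group and with 1 array per mouse. The labels name the groups by genotype as db/m and db/db. The methods of the paper and the design text instead describe db/db mice with and without HQD (Huangqi decoction, a herbal medicine), which the labels' protocol gives for 8 weeks. The paper's db/db mice carry a defective leptin receptor on the C57BLKS/J background, and db/m mice carry 1 normal copy of it. The dose of HQD of the arrayed mice is not named, the sources do not settle which description holds for the first group, and genotype and treatment therefore cannot be told apart. The groups are called labelled db/m and labelled db/db throughout, and a difference is the mean of labelled db/m less that of labelled db/db.

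Cells that divide copy their DNA in S phase and part the copies in mitosis. D-type cyclins with their kinases carry a cell through G1, and E2F factors then switch on the genes that license, build and copy DNA. Most genes of mitosis are switched on later, through promoter elements called CHR and CCAAT that a complex of MuvB proteins with B-Myb or FoxM1, and the factor NF-Y, are known to use. In the adult kidney few tubule cells divide at a time, and transcripts of dividing cells are a small part of the RNA of the cortex. In RNA of whole tissue, fewer cells of a type and less RNA per cell cannot be told apart.

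The promoters of the mitosis and replication genes differed in how many held a CHR or an E2F motif, and sequences are shown for 5 members whose levels are given below, so that these elements can be seen. They are the 150 bases before the start of transcription from RefSeq (build GRCm38.p6), printed in the direction of the gene, with the CCAAT box, the CHR and the E2F motif in capitals. The first is Mki67 (the antigen Ki-67 of dividing cells, chr7:135716380-135716529, minus strand), followed by Top2a (DNA topoisomerase II alpha, which untangles chromosomes, chr11:99024190-99024339, minus strand) and Ube2c (a ubiquitin-conjugating enzyme of the anaphase-promoting complex, chr2:164769779-164769928, plus strand). The last are Cenpf (a kinetochore protein, chr1:189688087-189688236, minus strand) and Cdc6 (which loads the MCM helicase on origins, chr11:98908001-98908150, plus strand).
Mki67: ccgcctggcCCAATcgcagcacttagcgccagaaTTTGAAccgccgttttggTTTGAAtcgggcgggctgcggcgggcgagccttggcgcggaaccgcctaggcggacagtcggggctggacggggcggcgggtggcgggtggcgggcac
Top2a: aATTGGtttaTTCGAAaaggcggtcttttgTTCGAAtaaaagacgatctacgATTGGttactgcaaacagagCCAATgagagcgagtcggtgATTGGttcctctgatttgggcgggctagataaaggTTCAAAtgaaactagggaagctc
Ube2c: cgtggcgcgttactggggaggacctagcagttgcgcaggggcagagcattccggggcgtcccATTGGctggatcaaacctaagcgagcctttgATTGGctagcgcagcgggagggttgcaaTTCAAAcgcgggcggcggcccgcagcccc
Cenpf: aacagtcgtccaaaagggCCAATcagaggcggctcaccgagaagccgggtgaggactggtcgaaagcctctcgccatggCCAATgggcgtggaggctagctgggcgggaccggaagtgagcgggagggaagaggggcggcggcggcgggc
Cdc6: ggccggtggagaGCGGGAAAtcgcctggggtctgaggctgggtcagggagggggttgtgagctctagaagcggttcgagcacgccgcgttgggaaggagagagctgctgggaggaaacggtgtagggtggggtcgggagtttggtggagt
The mitosis promoters of Mki67, Top2a and Ube2c held both the CCAAT box and the CHR in this stretch. Cenpf held CCAAT boxes there and a CHR from 3 to 8 bases after the start, and Cdc6 held an E2F motif and neither of the others.

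Motifs were searched on both strands, where a match could overlap another, in windows from 250 bases before to 50 after each start. The letters were CCAAT for the CCAAT box, TTTGAA or TTCGAA for the CHR, and TTTCCCGC, TTTCGCGC, TTTGCCGC or TTTGGCGC for E2F. Windows were found for 35 of the 44 members. Of the 16 mitosis windows, 12 held a CHR and each of these 12 held a CCAAT box too, whereas a CHR was in 19.2% of all 32851 windows and both together in 7.52%. Of the 15 replication windows, 6 held an E2F motif, against 2.26% of all windows, and 2 held a CHR. The CCAAT box was common in both, in 14 of the 16 mitosis windows and 9 of the 15 replication windows beside 37.4% of all windows. Mcm7, of replication, and Cdk1, of mitosis, held all 3 motifs, and Cdk1 was the 1 mitosis member with an E2F motif. The 4 windows of the G1 genes and the 3 of the inhibitors held no CHR by these letters. Among 46 windows of other mitosis genes, 71.7% held a CHR, so that this feature was not particular to the members. Aurkb, Ccna2, Ccnd1, Ccnd2, Ccne2, Foxm1, Kif20a, Mcm4 and Tpx2 had no window in the table. A match to letters describes the sequence and shows no binding.

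Levels are given on the log2 scale, as the log2 intensity of a probe minus the 75th percentile of its array, and a level of 0 is thus that percentile. A probe entered the test if every array of at least 1 group had it well above background, and the brightest tested probe stood for its gene. This let 36 of the 44 members into the test. Cdk1, Ccnb1, Bub1, Bub1b, Aurkb, Kif11 and Tpx2, all of mitosis, were too dim, since neither group had a probe of theirs well above background on each of its 3 arrays. Cdk1, the kinase that drives entry into mitosis, was well above background on 1 array, labelled db/db replicate 2. Since dim members are missing from the test, its counts describe the 36 tested members and not all 44.

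Few members were called different between the groups. The 36 differences ran from -0.89 to 1.06 with a median of -0.18, beside a median of -0.04 over all 15530 genes tested, and 28 were negative and 8 positive. At an unadjusted p under 0.05 from limma, 4 members were lower in labelled db/m, which is 11.1% of those tested, and 9.74% of all tested genes were lower by the same criterion. At that p, 1 member was higher, which is 2.78%, beside 5.49% of all genes. With arrays centred on their median instead, which moved the median of all genes to -0.23, 11 members were lower (30.6%) and 1 higher (2.78%), where 18.2% and 2.67% of all genes were. With quantile normalization 6 members were lower (16.7% beside 8.04% of all genes), and in the deposited matrix 5 were (13.9% beside 8.02%). The share of members lower is thus near the background on the scale used here and above it with each of these alternatives. It was below the background with others, such as normexp background correction (8.33% beside 10.2%). The share higher rests on 1 gene. The criterion of a 2-fold difference with a p under 0.05 was met by 1 member, Cdc6, and by 0.895% of all genes. After Benjamini-Hochberg adjustment over all probes in limma, 0% of genes and 0 members passed, as did 0 probes by the methods' t-test, although 5282 of 29890 probes had an unadjusted limma p under 0.05. Groups did not overlap for 6 members lower in labelled db/m (16.3% of all genes) and for 1 higher (6.62% of all genes). With 3 arrays a group, the smallest p of an exact permutation test is 0.1, which a member with no overlap reaches, so the limma fit across all probes is given with its 95% intervals. A member is said to meet the unadjusted criterion where its limma p before adjustment was under 0.05.

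**Figure D1:**
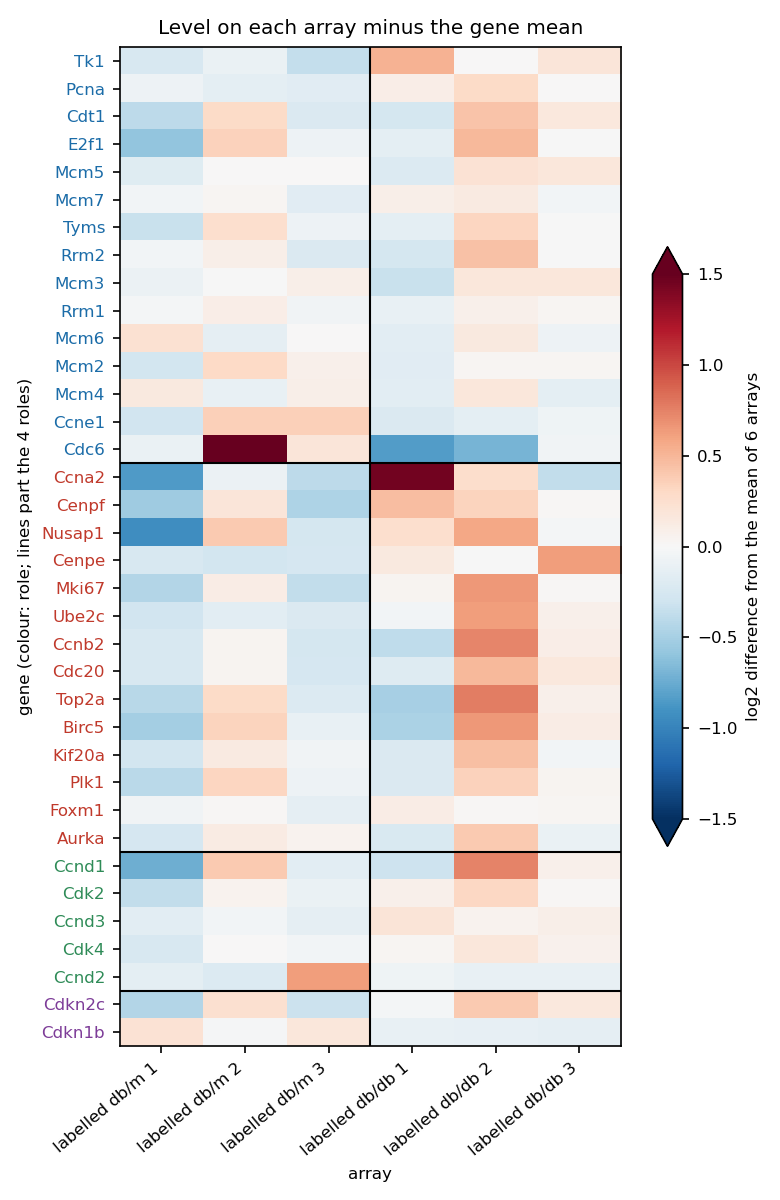
Level of each of the 36 tested members on each array minus that gene's mean over the 6 arrays, as a log2 colour scale (blue lower, red higher, ends of the scale at -1.5 and 1.5), with genes in rows by role and arrays in columns. The mitosis genes (red names) were mostly blue on labelled db/m replicates 1 and 3 and red on labelled db/db replicate 2, which had the highest value for 10 of 14 of them.

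**Figure D2:**
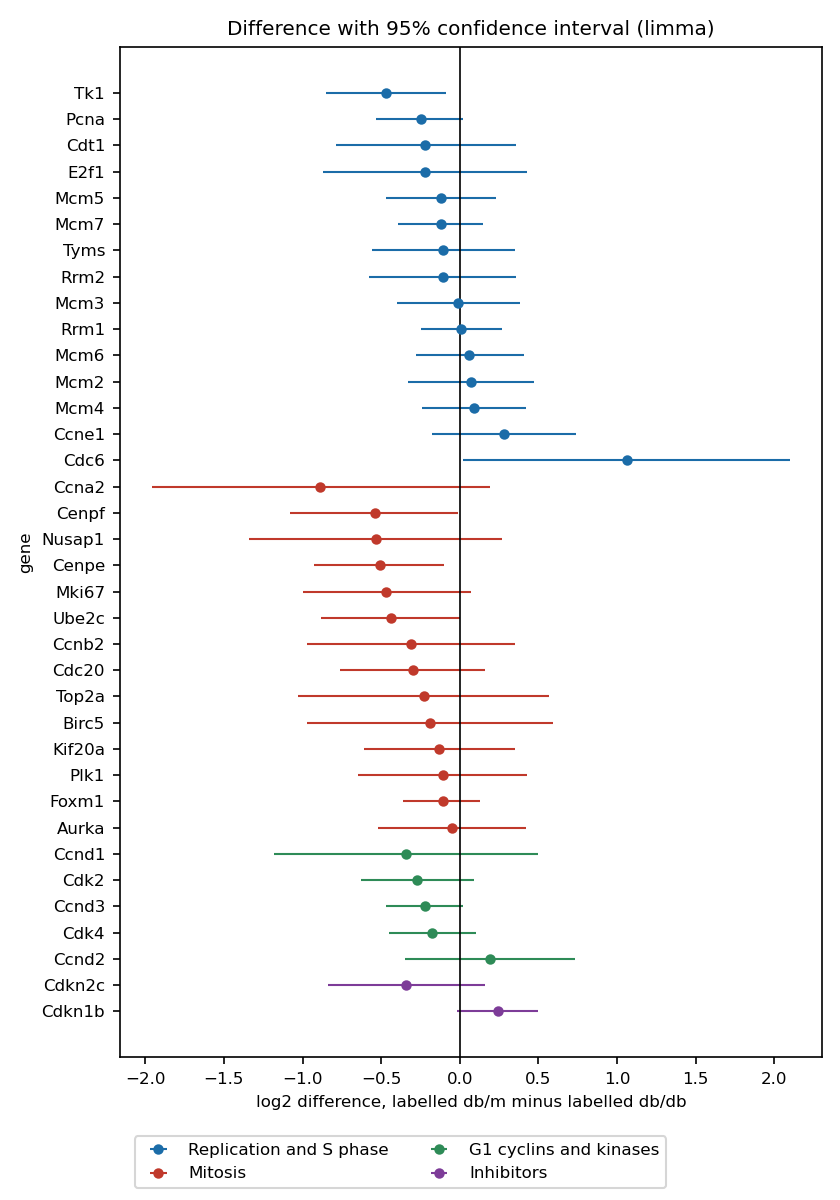
Difference between the group means (labelled db/m minus labelled db/db, log2) of each tested member with its 95% confidence interval from limma, in colours by role. Most intervals cross 0, and those of Tk1, Cenpf and Cenpe lie below it, that of Ube2c ends at 0.00 and that of Cdc6 begins at 0.02.

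All 14 tested members of mitosis had a negative difference, from -0.89 for Ccna2 to -0.05 for Aurka, with a median of -0.30. Of these, 3 met the unadjusted criterion on the lower side by limma (21.4%, beside 9.74% of all genes), and 0 on the higher side. The sign went against the trend of other dim genes: 10 of the 14 lay in the dimmest quartile of the tested genes, where the median over all genes was 0.17 and 33% of genes were negative. The other 4 lay in the next quartile, where the median was 0.00 and 49.6% were negative. Genes that move together across animals are not independent, and the shared sign rested on 2 arrays. Without labelled db/db replicate 2, 9 of 14 were negative with a median of -0.13, and without labelled db/m replicate 1, 11 of 15 were negative with a median of -0.20. With any of the other 4 arrays left out, all tested mitosis members stayed negative, with medians from -0.47 to -0.25. One slide held an array of each group, which were labelled db/db replicate 3 and labelled db/m replicate 1. In this comparison of 1 array with 1, called the shared slide below, all 14 were negative with a median of -0.45, and it uses the array on which 9 of the 14 were lowest.

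Cenpe (a kinesin-like motor that moves chromosomes to the spindle equator, probe at chr3:134936387-134936446, mm9) was -0.88, -0.92 and -0.89 on labelled db/m replicates 1 to 3 and -0.49, -0.65 and -0.02 on labelled db/db replicates 1 to 3. Its groups did not overlap, and the labelled db/m arrays had an SD of 0.02 (n = 3) beside 0.33 in labelled db/db. Cenpe fell by 0.51 (SE 0.17, adjusted p = 0.245 by limma), so that labelled db/db was 1.43-fold higher, and it met the unadjusted criterion. It no longer met it without labelled db/m replicate 2 or 3, where the difference was -0.50 and -0.52, or by the methods' t-test, 1 of 12 alternatives of processing, and within the shared slide the difference was -0.87.

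Cenpf (probe at chr1:191465934-191465993, mm9), whose promoter is shown above, was -3.97, -3.25 and -3.90 on the labelled db/m arrays and -2.97, -3.10 and -3.42 on the labelled db/db arrays. The groups overlapped, since labelled db/m replicate 2 was above labelled db/db replicate 3. It fell by 0.54 (SE 0.22, adjusted p = 0.281 by limma) and met the unadjusted criterion. It did not meet it without labelled db/m replicate 1 (-0.41) or 3 (-0.45), or without labelled db/db replicate 1 (-0.45) or 2 (-0.51). Of the 12 alternatives of processing, 5 ended the call, among them normexp background (-0.32), no filter on dim probes and the methods' t-test. Within the shared slide the difference was -0.55.

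Ube2c (probe at chr2:164598016-164598075, mm9) was -2.48, -2.35 and -2.41 on the labelled db/m arrays and -2.23, -1.57 and -2.12 on the labelled db/db arrays. The groups did not overlap, and labelled db/db replicate 2 stood above the rest. Ube2c fell by 0.44 (SE 0.18, adjusted p = 0.282 by limma), at the edge of the unadjusted criterion. It met this criterion also when labelled db/db replicate 1 was left out (-0.57). It did not meet it without labelled db/m replicate 1 (-0.41), 2 (-0.47) or 3 (-0.44), or without labelled db/db replicate 2 (-0.24) or 3 (-0.51). The same 5 alternatives of processing that ended the call of Cenpf ended that of Ube2c, with -0.30 under normexp background. Within the shared slide the difference was -0.36.

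Mki67, the usual histological marker of cycling cells (probe at chr7:142881591-142881650, mm9), was -1.71, -1.16 and -1.63 on the labelled db/m arrays and -1.23, -0.62 and -1.25 on the labelled db/db arrays. The groups overlapped at labelled db/m replicate 2. Its difference was -0.47 (SE 0.23, adjusted p = 0.32 by limma) and did not meet the unadjusted criterion, which it met without labelled db/m replicate 2 (-0.63) and in 3 of 12 alternatives of processing, with differences from -0.65 to -0.45 over these 12. Top2a (probe at chr11:98854651-98854710, mm9) was -3.53, -2.83 and -3.32 on the labelled db/m arrays and -3.61, -2.34 and -3.04 on the labelled db/db arrays. Labelled db/db held both its lowest and its highest value. Its difference was -0.23 with an interval from -1.03 to 0.57, and it was 0.10 without labelled db/db replicate 2.

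The remaining 9 tested mitosis members did not meet the unadjusted criterion. Ccna2 (cyclin A2, which acts in S phase and G2), singled out after its values were seen, had the most negative difference, -0.89 with a 95% interval from -1.96 to 0.19. Without labelled db/db replicate 1 it was -0.39, and without labelled db/db replicate 3 it was -1.29 and met the unadjusted criterion. It was -2.98, -2.22 and -2.53 on the labelled db/m arrays and -0.69, -1.87 and -2.50 on the labelled db/db arrays. Labelled db/db replicate 1 alone was far above the rest, and replicate 3 lay inside the labelled db/m range. The other probe of Ccna2 did not show this high value and was lowest on labelled db/db replicate 1 (-4.83). That probe was too dim for the test, being well above background on 0 labelled db/m and 2 labelled db/db arrays. Its means were -4.28 in labelled db/m and -4.09 in labelled db/db. Nusap1, a spindle-associated protein, had a difference of -0.53 and Ccnb2, cyclin B2, one of -0.31. Values near 0 were those of the kinases Plk1 (-0.11) and Aurka (-0.05), which act at the spindle poles, and of Foxm1 (-0.11), the factor that switches on many mitosis genes. For Foxm1 the interval ran from -0.36 to 0.13, and the difference was -0.28 with quantile normalization and -0.27 in the deposited matrix, both of which met the unadjusted criterion. Cdc20, which activates the anaphase-promoting complex, is the 1 tested mitosis member with a further tested probe, and its signs differed, with -0.30 on the brightest probe and 0.26 on the other.

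Differences of the 15 tested replication and S-phase members lay on both sides of 0. They ran from -0.47 for Tk1 to 1.06 for Cdc6, with a median of -0.11, 9 were negative and 6 positive, and with arrays centred on their median 13 were negative. Limma called 1 lower and 1 higher at the unadjusted p, each 6.67% of those tested, beside 9.74% and 5.49% of all genes.

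Tk1, thymidine kinase 1, which salvages thymidine for DNA synthesis (probe at chr11:117676845-117676904, mm9), was 1.11, 1.25 and 0.99 on the labelled db/m arrays and 1.87, 1.36 and 1.53 on the labelled db/db arrays. The groups did not overlap. It fell by 0.47 (SE 0.16, adjusted p = 0.245 by limma), and labelled db/db was 1.39-fold higher. Its other 2 tested probes fell by 0.48 (SE 0.20) and 0.54 (SE 0.13), again with no overlap, and 2 more were too dim. All 3 tested probes met the unadjusted criterion. The brightest did not meet it without labelled db/m replicate 1 (-0.47) or 3 (-0.41), or without labelled db/db replicate 1 (-0.33), and of 12 alternatives of processing the slide as a fixed block ended the call. Within the shared slide the difference was -0.42.

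Cdc6 (probe at chr11:98782801-98782860, mm9) was -2.56, -0.95 and -2.27 on the labelled db/m arrays and -3.30, -3.15 and -2.51 on the labelled db/db arrays. Labelled db/m replicate 2 was high, and replicate 1 lay below labelled db/db replicate 3, so that the groups overlapped. Cdc6 rose by 1.06 (SE 0.44, adjusted p = 0.279 by limma), or 2.09-fold, and met the unadjusted criterion. It did not meet it without labelled db/m replicate 2 (0.57), or without labelled db/db replicate 1 (0.90) or 2 (0.98). Of the 12 alternatives of processing, 7 ended the call, among them quantile normalization (0.92), the deposited matrix (0.91), normexp background (0.66), no filter on dim probes and the methods' t-test. Within the shared slide the difference was -0.05, and the other probe of Cdc6 was too dim on each of the 6 arrays.

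Pcna, the sliding clamp of the DNA polymerases (probe at chr2:132075420-132075557, mm9), was 3.21, 3.14 and 3.12 on the labelled db/m arrays and 3.38, 3.57 and 3.29 on the labelled db/db arrays. The groups did not overlap, and the difference of -0.25 had an interval from -0.53 to 0.02 and an adjusted p of 0.298 by limma. Without labelled db/db replicate 3 it was -0.31 and met the unadjusted criterion, as it did in 4 of 12 alternatives of processing, with differences from -0.44 to -0.09. The 6 MCM genes, which encode the ring of the replicative helicase, gave differences from -0.12 to 0.09, and 0 of the 6 genes met the unadjusted criterion by limma. For Mcm3, a dimmer probe fell by 0.50 (SE 0.15) and met it, while its other 3 probes gave -0.06, -0.01 and 0.26. The enzymes of nucleotide supply Rrm1 (0.01), Rrm2 (-0.11) and Tyms (-0.11), the licensing factor Cdt1 (-0.22), the factor E2f1 (-0.22) and cyclin E1, Ccne1 (0.28), did not meet it.

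**Figure D3:**
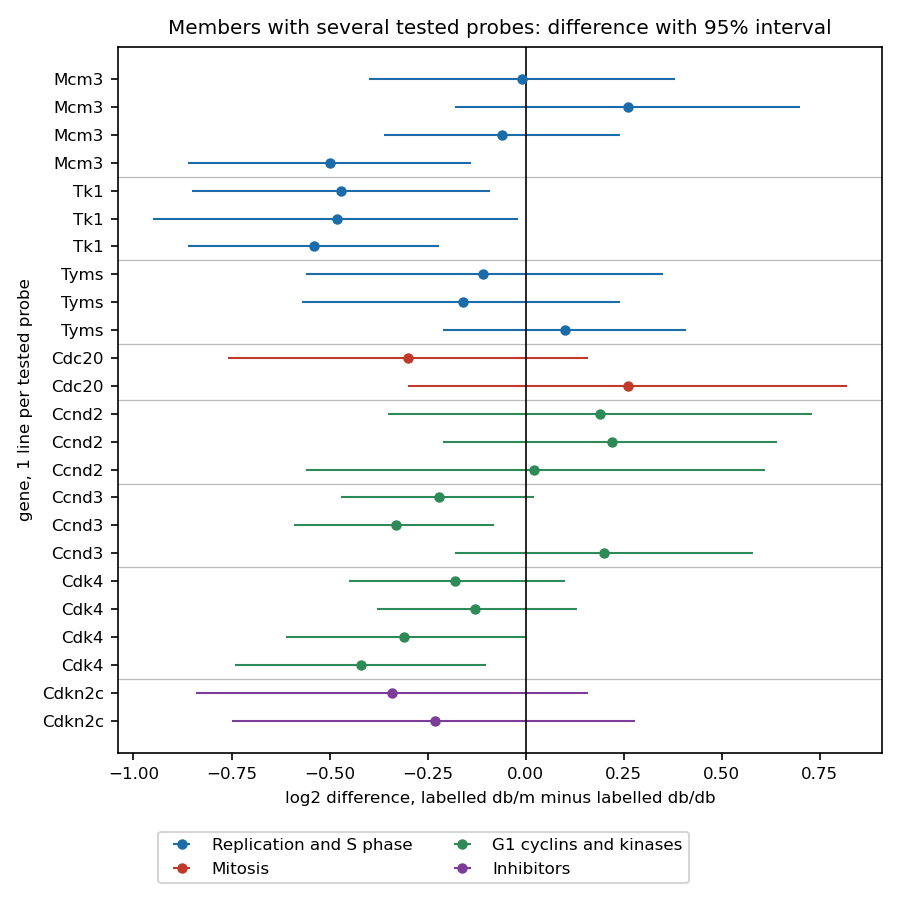
Difference between the group means (labelled db/m minus labelled db/db, log2) with its 95% confidence interval for each tested probe of the 8 members that have several, in colours by role. The 3 probes of Tk1 and the 4 of Cdk4 lie below 0, while those of Mcm3, Tyms, Cdc20 and Ccnd3 lie on both sides of it.

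The G1 genes had a median difference of -0.22 over 5 tested members, and 4 were negative. Ccnd1 (cyclin D1, probe at chr7:152116202-152116261, mm9) was 4.14, 5.26 and 4.71 on the labelled db/m arrays and 4.56, 5.61 and 4.95 on the labelled db/db arrays. The groups overlapped widely, and the difference was -0.34 with an interval from -1.18 to 0.50. Over 12 alternatives of processing it ran from -0.81 to -0.19, and without labelled db/db replicate 2 it was -0.05. Ccnd1 met the unadjusted criterion in 1 of the 12, a block for the replicate number, though these numbers were not taken as pairs. For cyclin D3, Ccnd3, the brightest probe did not overlap between the groups, with 4.21 to 4.33 in labelled db/m and 4.43 to 4.56 in labelled db/db, and a difference of -0.22 (SE 0.10, interval from -0.47 to 0.02). Another probe of it fell by 0.33 (SE 0.11) and met the unadjusted criterion, and its last probe gave 0.20. Its partner kinase Cdk4 was 3.61, 3.86 and 3.81 on the labelled db/m arrays and 3.88, 4.02 and 3.91 on the labelled db/db arrays, with no overlap and a difference of -0.18 (SE 0.12, interval from -0.45 to 0.10). Its other 3 probes gave -0.13, -0.31 and -0.42, of which the larger 2 met the unadjusted criterion. Ccnd3 and Cdk4 were singled out after their values were seen. Cdk2 (-0.27), which pairs with cyclin E, and cyclin D2, Ccnd2 (0.19), did not meet the unadjusted criterion. Over 12 alternatives of processing, Ccnd3 met it in 3, Cdk2 in 2, and Cdk4 and Ccnd2 in 0.

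Of the inhibitors, Cdkn1b (p27, which binds and blocks cyclin-dependent kinases, probe at chr6:134875424-134875483, mm9) was 2.91, 2.68 and 2.87 on the labelled db/m arrays and 2.59, 2.58 and 2.56 on the labelled db/db arrays. Its groups did not overlap, and it is the 1 member with no overlap on the higher side. The difference of 0.24 had an interval from -0.02 to 0.50 and an adjusted p of 0.298 by limma. It met the unadjusted criterion without labelled db/m replicate 2 (0.31) and in 5 of 12 alternatives of processing, among them quantile normalization (0.34), normexp background (0.25) and the methods' t-test. With arrays centred on their median it was 0.05. Cdkn2c (p18, which blocks Cdk4 and its relative Cdk6) gave -0.34 on one probe and -0.23 on the other, and neither met the unadjusted criterion. The gene met it in 2 of 12 alternatives of processing, median centring and a block for the replicate number.

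Proximal tubule markers were lowest and highest on the same arrays as the mitosis genes. Relative to each gene's mean, the 14 mitosis members averaged -0.41, 0.11 and -0.22 on the labelled db/m arrays and 0.01, 0.45 and 0.05 on the labelled db/db arrays. Labelled db/db replicate 2 held the highest value of 10 of them and labelled db/m replicate 1 the lowest of 9. Over all 15530 genes, these arrays held the highest value of 5071 and the lowest of 3967. The 7 proximal tubule markers (Slc34a1, Lrp2 and others), each well above background on all arrays, averaged from -0.48 to 0.20 in labelled db/m and from 0.05 to 0.28 in labelled db/db, lowest on labelled db/m replicate 1 and highest on labelled db/db replicate 2. The 5 podocyte markers were also lowest on labelled db/m replicate 1 (-0.56), but highest on labelled db/m replicate 2 (0.45), and averaged from -0.16 to 0.31 in labelled db/db. The 3 collecting duct markers averaged highest on labelled db/m replicate 1 (0.28), with averages from -0.22 to 0.28 and from -0.07 to 0.11. Of the 3, only Aqp2 was highest on that array, and its difference was 0.48. The differences of Hsd11b2 (-0.41, which met the unadjusted criterion) and Atp6v1g3 (-0.26) were negative. Averages of the 4 thick limb and distal markers ran from -0.21 to 0.11 in labelled db/m and from 0.06 to 0.10 in labelled db/db. Among them Slc12a3 had a difference of -0.91, whereas Umod (-0.09) and Pvalb (-0.03) were near 0 and Slc12a1 was positive (0.34). The 5 endothelial markers averaged from -0.09 to 0.22 in labelled db/m and from -0.13 to 0.02 in labelled db/db. The 4 tested erythroid markers averaged from -0.31 to 0.18 and from -0.19 to 0.42.

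The 5 tested of 8 lymphocyte markers ran the other way, from -0.01 to 0.56 in labelled db/m and from -0.66 to 0.12 in labelled db/db, with a median difference of 0.43, while Cd79a and Cd8a were too dim on each array. The 5 genes listed as macrophage markers had a median difference of 0.37 and ran from -0.03 for C1qa to 0.55 for Ptprc, which leukocytes in general carry. Of these 5, Adgre1 and Ptprc were higher at an unadjusted p under 0.05, beside 5.49% of all genes. Other tested probes of Ptprc gave 0.84, which met the unadjusted criterion, and 0.03, which did not. Of tubular injury, Havcr1 was too dim on each array, and the 4 markers tested had a median of 0.18. The part that these cell types have in the levels of the cell cycle genes was not tested. The slide and scan also moved with the groups in part: 1 slide held 2 labelled db/m arrays, 1 held 2 labelled db/db arrays and 1 held 1 of each.

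**Figure D4:**
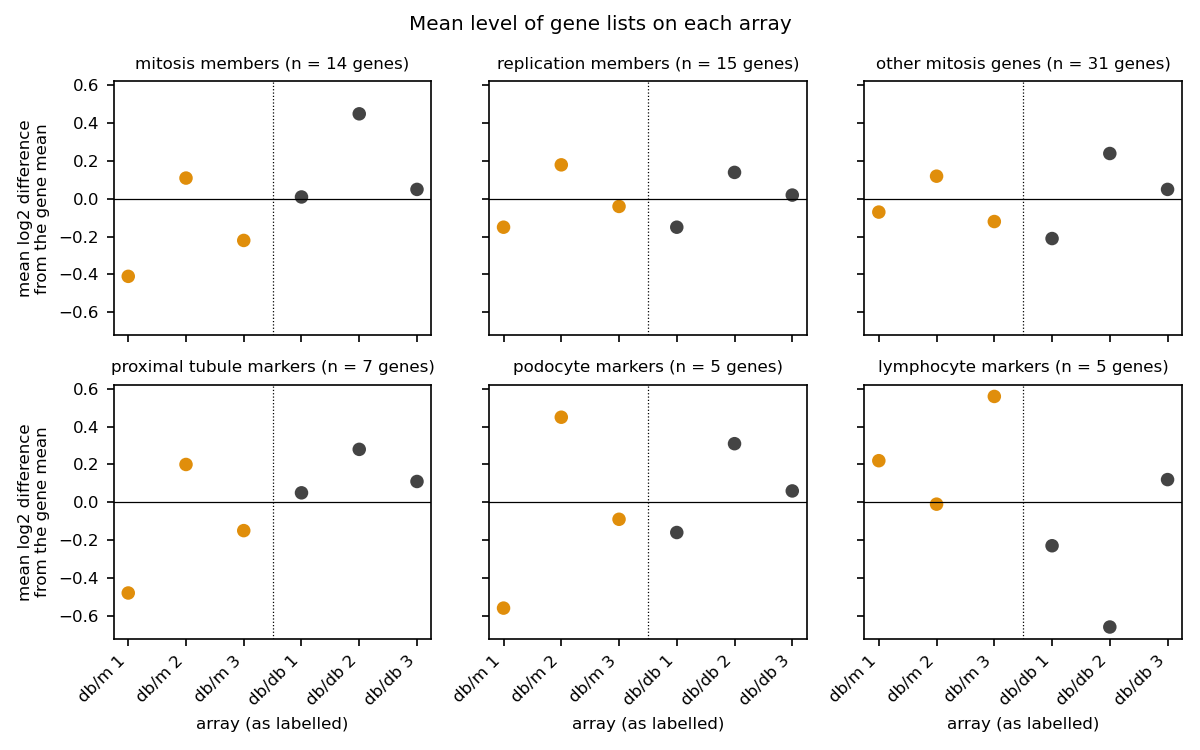
Mean over the genes of 6 lists of the log2 level on each array minus the gene's mean over the 6 arrays, with labelled db/m arrays in orange and labelled db/db arrays in dark grey. The mitosis members and the proximal tubule markers were lowest on labelled db/m replicate 1 (-0.41 and -0.48) and highest on labelled db/db replicate 2 (0.45 and 0.28), where the lymphocyte markers were lowest (-0.66).

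Other genes of the cell cycle, 130 in 4 lists, were mixed in sign, where the tested mitosis members were all negative. Of 103 tested, 54 were negative with a median difference of -0.03, and 4 were lower (3.88%) and 2 higher (1.94%) at the unadjusted limma p, below the background of 9.74% and 5.49%. Of 50 other mitosis genes 31 were tested, 19 were negative (61.3%) and the median was -0.08. Of these 31, 18 lay in the dimmest quartile, where 33% of all genes were negative. The next quartile held 9 (49.6% of all genes negative) and the brightest held 4 (78.8%). Like the mitosis members they averaged highest on labelled db/db replicate 2 (0.24), but lowest on labelled db/db replicate 1 (-0.21). Spc24 (of the Ndc80 complex that ties kinetochores to microtubules) fell by 0.58 (adjusted p = 0.248) and Cenpa (the histone of centromeres) fell by 0.51 (adjusted p = 0.272), whereas Trip13 (an ATPase of the spindle checkpoint) rose by 0.86 (adjusted p = 0.248). Of 38 other replication genes 33 were tested with a median of -0.05. Rpa2 (which coats single-stranded DNA) fell by 0.29 (adjusted p = 0.266), and Cdc7 (the kinase that fires origins) rose by 0.54 (adjusted p = 0.274).

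The 25 tested of 27 cyclins, kinases and E2F or pocket factors had a median of -0.03, and 0 passed the unadjusted limma p. Of 15 inhibitors and arrest genes 14 were tested, 9 were positive and 5 negative, with a median of 0.16, and 0 passed the unadjusted limma p. Cdkn2b (p15, an inhibitor of Cdk4), singled out after its values were seen, had the largest difference among them, 1.31 (SE 0.75). It was 1.21, -1.77 and 0.58 on the labelled db/m arrays and -0.88, -1.92 and -1.12 on the labelled db/db arrays, so that replicate 2 was the lowest in both groups. Cdkn1a (p21, a target of p53) gave 0.41 and Btg2, another gene of arrest, 0.46, and neither met the unadjusted criterion.

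**Figure D5:**
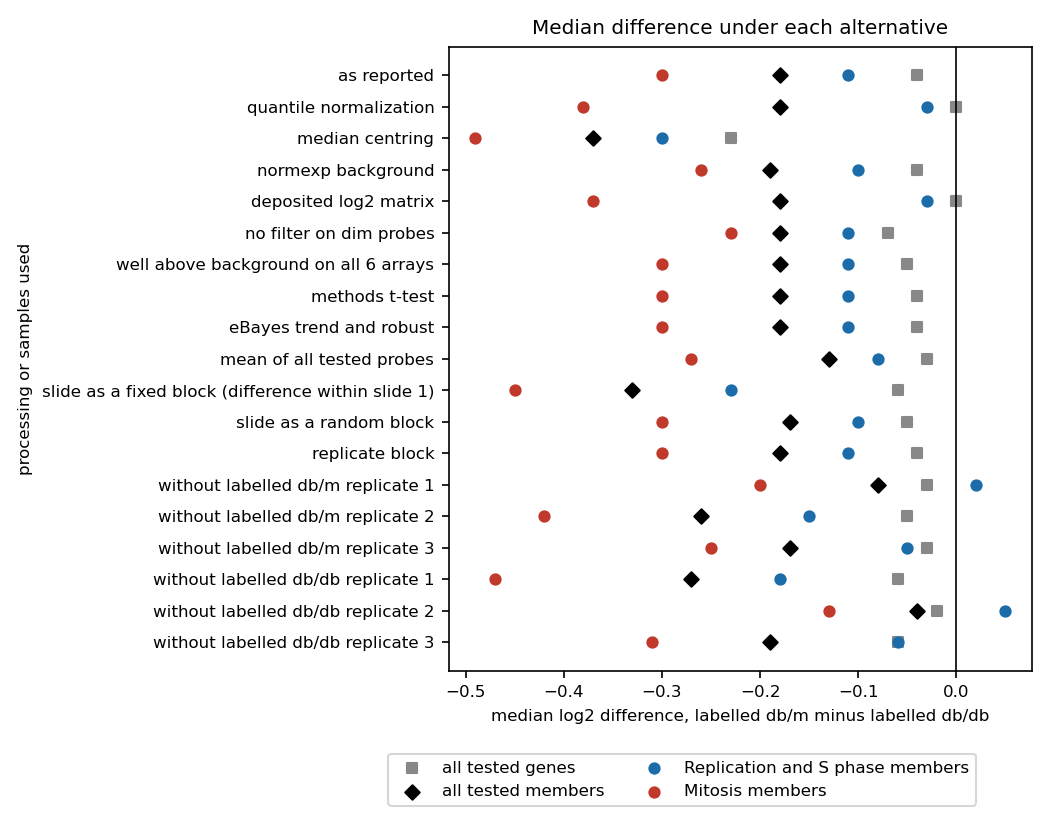
Median log2 difference (labelled db/m minus labelled db/db) over all tested genes, all tested members and the members of replication and of mitosis, for the processing reported and each alternative. The mitosis median stays below that of all genes under each alternative drawn, and comes nearest to it without labelled db/db replicate 2 (-0.13 beside -0.02).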

How the data were processed

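Renal cortex RNA was measured on 6 one-colour arrays, 3 per group. The authors deposited the processed intensity of each spot from Agilent Feature Extraction 10.7.1.1 (background-subtracted, not scaled between arrays), and a matrix of log2 values with nearly the same sorted values in each array, as after quantile normalization. Its scale is log2, and its centring is not stated (median 6.11 in each array). Per the file headers, other columns flag each spot as well above background, saturated or an outlier. The file of labelled db/m replicate 1 held values of at most 3 significant digits, where the others held 7, and 71 gene names that differed, so names came from labelled db/db replicate 1.

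Control spots were dropped, as were 135 probes that carried an outlier flag. Spots of a probe were averaged, and log2 intensities were set relative to the 75th percentile within each array. Groups were compared in R 4.3.3 with limma 3.58.1 (lmFit, eBayes, Benjamini-Hochberg over 29890 probes). The procedure was tested on simulated data. Between 51.6% and 59% of probes per array were well above background, 0 spots were saturated, and the number of arrays limits the precision. Array correlations were 0.981 to 0.993. Probe positions are those of the files (mm9), and what the annotation holds there was not determined.

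Values on every array are given for members with an unadjusted p under 0.05, a difference of at least 1, or detection in 1 group, and for Mki67, Top2a, Pcna, Ccnd1 and Cdkn1b. From each list of other cell cycle genes, the differences of up to 3 genes per direction with a p under 0.05 are given. A gene that this rule covers is not reported here and stays in the counts. Members and lists were chosen with earlier results of these data known. The alternatives tried were median centring, quantile normalization, the deposited matrix, normexp with an offset of 50, other filters and eBayes with trend and robust variance. Further ones were an ordinary t-test, the mean of all probes, slide and replicate blocks, and each array left out. Slide as a random block was added after seeing the data.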

Additional observations from a re-analysis of the deposited data

How the results depend on the processing

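The median difference of the members stayed negative under each alternative, from -0.37 (median centring, which moved the median of all genes to -0.23 and left the members 0.14 below it, as before) to -0.04 without labelled db/db replicate 2. The count of members lower at the unadjusted p, 4, became 11 with median centring (beside 1 higher), 2 with no filter on dim probes and 1 with the slide as a fixed block, where 18.2%, 4.30% and 5.32% of all genes were lower. With single arrays left out it ran from 0 (without labelled db/m replicate 3, where 3.47% of all genes were lower) to 5 (among others without labelled db/db replicate 1, 13.2% beside 4.87%). The count of members higher, 1, became 0 with no filter on dim probes, 2 with trend and robust and 0 with the slide as a fixed block (beside 3.83%, 5.36% and 3.03% of all genes), and ran from 0 to 2 with single arrays left out. For the other cell cycle genes, the 2 higher became 1 with median centring, 1 with normexp background, 1 with no filter and 1 with a filter on all 6 arrays. They became 0 by the ordinary t-test and 4 under the fixed block for the slide. With single arrays left out they ran from 1 to 11 (without labelled db/m replicate 2, 10.6% beside 11.1% of all genes). The 4 lower became 14 (13.6% beside 18.2%) with median centring and 7 (6.80% beside 12.4%) with trend and robust, and ran from 0 to 8. Cdc6 was reversed, at -0.05, with the slide as a fixed block, and Top2a, at 0.10, when labelled db/db replicate 2 was left out (its range with single arrays left out was -0.54 to 0.10). The replicate numbers are shared between groups, but same-numbered arrays deviated together with correlations of 0.354, 0.148 and 0.0461, so the numbers were not taken as pairs. With the replicate block, 7 members were lower (19.4%) and 0 higher, and 8 other cell cycle genes were lower (7.77%) and 3 higher (2.91%), beside 12.7% and 6.85% of all genes. Not every array correlated best with its own number. Of the values of named members under the alternatives, 127 kept direction and side of the threshold, 35 lost the threshold, 16 gained it and 2 reversed. The causes of these changes were not tested. With single arrays left out, up to 222 probes passed the adjusted threshold (labelled db/m replicate 2 left out; 129 when it was labelled db/db replicate 3). Dim probes limit the test, since 7 mitosis members could not enter it.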

Other observations

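A few probes of members that did not enter the test were bright on 1 array only. A probe of Aurkb, the kinase that corrects attachments of chromosomes to the spindle, was at -1.47 on labelled db/m replicate 3 and between -6.42 and -5.33 on the other 5 arrays, while its other probe was between -4.48 and -3.52 on all 6. A probe of Ccnb1, cyclin B1, was at -3.06 on the same array and between -6.23 and -5.80 on the others. These values were chosen after they were seen and were not tested.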
